A study of Mus musculus with 6 samples.

Results

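The data are read counts of 16-base DNA sequences that ran with recombinant mouse Gli protein on a gel (bound) or ran free of it (unbound). All sequences of one deposited table with at least 10 reads in both fractions were taken, which gave 1264 of its 1266 lines, out of 2094 sequence lines in the 3 tables of the series. The series comprises 3 binding reactions with a single bound and a single unbound library apiece, and the sample titles name the protein Gli1. Each measured value here therefore rests on 1 bound and 1 unbound count. No test across samples was possible, and all errors are counting standard errors (SE), which leave out any other source of error: PCR copies were not marked by molecular identifiers and may descend from the same molecule. The headings of the table tie it to no sample pair and to no methylation state. One pair of samples is titled R1-R5, and its labels list barcoded libraries both unmethylated and treated with M.SssI, an enzyme that methylates CpG. Whether the counts of the table pool these states is not stated. Binding took place in a test tube with naked DNA, so no cells, nucleosomes or partner proteins were present.

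Gli proteins are zinc finger transcription factors at the end of the Hedgehog pathway, which patterns the neural tube and limbs. Gli1 acts as an activator, and its own gene and the receptor gene Ptch1 are among the known targets of the pathway. The array of zinc fingers wraps along the DNA, and the C-terminal fingers make most of the base contacts, within a stretch known as the Gli consensus. In the assay used here, called Spec-seq, a pool of variants competes for the protein. The ratio of bound to unbound reads of a sequence then rises with its affinity relative to the others in the pool.

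The most frequent base at each position of the table gave the reference, against which each variant was set. It is shown with positions 1 to 9, which read as the Gli consensus, in capitals, and positions 10 to 16 in lower case:
reference: GACCACCCAagatgaa

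The 1264 sequences form 5 overlapping windows of 4 positions (1 to 4, 4 to 7, 7 to 10, 10 to 13 and 13 to 16), outside which a sequence equals the reference. Every window was complete, with 256 sequences. The reference belongs to all 5 windows, and the 12 single-base variants at positions 4, 7, 10 and 13 belong to a pair of them. Each of these has a single line, so the reference has no value of its own per window. Whether such a line pools the reads of several libraries is not stated. The strongest and the weakest variant of each window are printed here because they mark the range over which Gli told the sequences apart; capitals mark the bases that differ from the reference:
window 1 to 4, highest: gCccacccaagatgaa
window 1 to 4, lowest: CTTTacccaagatgaa
window 4 to 7, highest: gaccCcccaagatgaa
window 4 to 7, lowest: gacTaTTcaagatgaa
window 7 to 10, highest: gaccacccaCgatgaa
window 7 to 10, lowest: gaccacTTTTgatgaa
window 10 to 13, highest: gaccacccaCgaGgaa
window 10 to 13, lowest: gaccacccaaAatgaa
window 13 to 16, highest: gaccacccaagaCgCC
window 13 to 16, lowest: gaccacccaagaAATa

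The bound library held 2101487 reads of these sequences and the unbound library 291873. Counts were not scaled for depth, so a ratio is read only against that of another sequence. Bound counts ran from 101 to 17352 per sequence and unbound counts from 12 to 2718. The counting SE of a difference from the reference had a median of 0.11 on the natural log scale. It was widest in the outer windows, with medians of 0.15 for positions 10 to 13 and 13 to 16, where 224 and 213 of 255 variants had under 100 unbound reads.

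The reference had 8450 bound and 236 unbound reads, a ratio of 35.7 after 0.5 was added to each count. A variant was called lower or higher when its ratio differed at least 2-fold from that of the reference and by more than 2 counting SE. Of all 1263 variants, 52.4% were called lower and 1.66% higher. Among single-base variants the calls lay in the consensus: 13 of 27 at positions 1 to 9 were called lower and none of 21 at positions 10 to 16, and 0 of 48 were called higher. The median difference from the reference was -0.66 at positions 1 to 9 and -0.21 at positions 10 to 16. Without the 2-fold limit, 21 of 27 and 5 of 21 lay lower by more than 2 counting SE, and 3 of 48 lay higher.

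The cytosines at positions 4 and 6 were the least replaceable bases of the site. The mean difference over the 3 substitutions was -1.70 at position 4 and -1.64 at position 6, and all 6 variants were called lower. C4G had 1930 bound and 467 unbound reads, a ratio of 4.13 and a difference of -2.16 ± 0.08. C4A had 1660 and 271 reads (-1.77 ± 0.09) and C4T had 2306 and 212 (-1.19 ± 0.10). As single changes, thymine was thus the best tolerated base at position 4 and guanine the worst, by more than their counting SEs. At position 6, C6G had 1315 and 262 reads (-1.96 ± 0.09), C6T had 901 and 134 (-1.67 ± 0.11), and C6A had 976 and 99 (-1.29 ± 0.12). Guanine was again the lowest, but here adenine and not thymine was the best replacement.

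Position 5, which lies between these cytosines, tolerated every base. A5C had 1139 bound and 34 unbound reads, and its difference of -0.08 ± 0.19 has a 95% counting interval from -0.44 to 0.29. A5G (2384 and 100 reads) lay at -0.41 ± 0.12 and A5T (1164 and 54 reads) at -0.51 ± 0.15, and neither reached 2-fold. An adenine flanked by strictly read cytosines was thus the weakest point of the consensus other than position 9, when ranked by the mean of the 3 substitutions (-0.33 against -0.31).

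The first 3 bases had intermediate effects. At position 3 all 3 substitutions were called lower: C3G (1817 and 185 reads) at -1.29 ± 0.10, C3T (1414 and 124) at -1.15 ± 0.11 and C3A (1226 and 73) at -0.76 ± 0.14. Position 2 depended on the incoming base. A2T (1384 and 140 reads) was called lower, at -1.29 ± 0.11, while A2C (1581 and 50) lay at -0.13 ± 0.16 and A2G (2689 and 102) at -0.31 ± 0.12. At position 1, G1A (797 and 54 reads) was called lower, at -0.89 ± 0.16. G1T (1029 and 55) lay at -0.66 ± 0.15 and G1C (996 and 50) at -0.59 ± 0.16. The 3 bases at position 1 did not differ from each other beyond 2 counting SE.

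On the 3' side of the consensus, position 7 was read most strictly. Its mean over the 3 substitutions was -0.72, against -0.45 and -0.31 at positions 8 and 9. The means at positions 1 and 2 were -0.71 and -0.58. C7T (2420 and 192 reads) and C7G (4319 and 315) were called lower, at -1.04 ± 0.10 and -0.96 ± 0.09. C7A (2642 and 86) lay at -0.16 ± 0.13, with a 95% counting interval from -0.41 to 0.09. No substitution at positions 8 or 9 was called. They ran from -0.59 ± 0.13 for C8G (1737 and 87 reads) to -0.22 ± 0.18 for C8T (1044 and 36), and from -0.38 ± 0.17 for A9T (1087 and 44) to -0.27 ± 0.14 for A9G (2011 and 73).

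Beyond the consensus the single-base differences were small in both directions. A10C (4445 and 72 reads) was the highest of the 48 single-base variants, at 0.54 ± 0.14. G11A (1068 and 58) was the lowest of the outer positions, at -0.67 ± 0.15, followed by G14A (893 and 44), at -0.58 ± 0.17. Thus the 2 guanines of the outer part gave the largest falls there, and adenine had the lowest value at both. The 3 substitutions at each of these positions did not differ from each other beyond 2 counting SE. The means over 3 substitutions were -0.44 at position 11 and -0.38 at position 14, and from -0.18 to 0.24 at the other 5 outer positions.

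Binding fell with each further change in the first 3 windows, down to a level that differed by window. In window 1 to 4 the median difference from the reference went from -1.02 with 1 changed base to -2.37, -3.10 and -3.53 with 2, 3 and 4. In window 4 to 7 the medians were -1.12, -2.23, -3.84 and -4.29, the last a 73.0-fold lower ratio. In window 7 to 10 they were -0.28, -0.52, -1.43 and -2.18. The fall was steepest for the central window, and the last step, from 3 to 4 changed bases, was the smallest in windows 1 to 4 and 4 to 7.

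Sequences with all 4 bases changed spanned a narrower range in windows 1 to 4 and 4 to 7 than in window 7 to 10. Their 81 ratios ran from 0.688 to 1.99 in window 1 to 4 and from 0.321 to 1.36 in window 4 to 7, a span of 2.89-fold and 4.23-fold. In window 7 to 10 they still ran from 1.25 to 25.4, a span of 20.3-fold. All 81 were called lower in windows 1 to 4 and 4 to 7, and 79 of 81 in window 7 to 10. The weakest sequence of the table had 3 changes: gacTaTTcaagatgaa, with 101 bound and 348 unbound reads and a ratio of 0.291, lay 123-fold below the reference.

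In the outer windows no such fall was seen. Medians in window 10 to 13 were 0.04, 0.02, 0.12 and 0.19 for 1 to 4 changed bases, and those in window 13 to 16 were -0.25, -0.17, -0.09 and -0.01. Of the 81 sequences with 4 changes in each outer window, 0 were called lower, and 6 were called higher in window 10 to 13 and 0 in window 13 to 16. Calls over each whole window followed the same order: 246, 247 and 173 of 255 variants were called lower in the first 3 windows, and 0 and 1 in the last 2.

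Sequences that kept a single reference base of their window differed by which base it was. There are 27 such sequences for each kept base. In window 4 to 7, keeping C4 alone left a median difference of -2.67, while keeping C6 alone left -3.49, C7 alone -3.92 and A5 alone -4.42. In window 1 to 4, keeping C4 alone left -2.66, C3 -2.96, G1 -3.16 and A2 -3.43. C4 was thus the most useful base to keep in both windows that hold it. In window 7 to 10, keeping C7 alone left only -0.37, against -1.74 for C8, -1.76 for A9 and -2.26 for A10. In the outer windows the guanines gave the highest medians: 0.58 for G11, against -0.13 to 0.17 for the other bases of window 10 to 13, and 0.34 for G14, against -0.29 to -0.12 in window 13 to 16.

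Few double changes within positions 1 to 7 stayed within the limit of a call, and many did in window 7 to 10. There 21 of 54 double variants were called lower and 33 were not, and a change of both positions 8 and 9 left a median of -0.55. In window 1 to 4, 49 of 54 double variants were called lower, and the other 5 all changed positions 1 and 2. In window 4 to 7, 50 of 54 were called lower, and each of the other 4 changed position 5. These 9, named after their values were seen, are the following, with changed bases in capitals:
G1C with A2G: CGccacccaagatgaa
G1T with A2G: TGccacccaagatgaa
G1C with A2C: CCccacccaagatgaa
G1A with A2G: AGccacccaagatgaa
G1T with A2C: TCccacccaagatgaa
A5C with C7A: gaccCcAcaagatgaa
A5T with C7A: gaccTcAcaagatgaa
A5C with C6A: gaccCAccaagatgaa
A5G with C7A: gaccGcAcaagatgaa

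G1C with A2G had 1737 bound and 64 unbound reads, a ratio of 26.9 and a difference of -0.28 ± 0.14, the highest of the double variants in windows 1 to 4 and 4 to 7. A5C with C7A had 1132 and 52 reads, a ratio of 21.6 and a difference of -0.50 ± 0.16. A5C with C6A (1165 and 62 reads, -0.65 ± 0.15) was the only pair of the 9 that changed C6. All of these pairs except that one joined substitutions at positions 1, 2, 5 or 7, and none held a change at position 3 or 4.

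Each substitution was also measured in all 64 backgrounds, that is, all bases at the other 3 positions of its window. Over 3840 such comparisons, 27.8% were called lower. Substitutions at position 4 were called lower in 60 (C4A), 60 (C4G) and 61 (C4T) of 64 backgrounds of window 4 to 7, and in 63, 48 and 59 of window 1 to 4. Those at position 6 were called lower in 48 (C6A), 47 (C6G) and 49 (C6T). At position 5 the counts were 1 (A5C), 8 (A5G) and 1 (A5T). A5C was called higher in 8 of 64, with a median effect of 0.32 and values from -0.94 to 1.70. In the same window A5T was called higher in 2 and A5G in 0. No substitution at positions 4, 6 or 7 was called higher there. The share called higher over all comparisons was not computed. The adenine at position 5 was thus not favoured over cytosine in most backgrounds, although the reference carries it. In the reference itself A5C lay at -0.08 ± 0.19. Most backgrounds hold other changes, and sequences with 3 or 4 changes in this window had median ratios of 0.768 and 0.490. These lay near the lowest of the table, and the part of a floor in the effects was not tested.

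The effect of position 7 depended on its neighbours. C7G lowered the log ratio by a median of -0.82 in window 4 to 7 and of -2.13 in window 7 to 10, and was called lower in 36 and 63 of 64 backgrounds. C7T had medians of -0.96 and -1.91 and was called in 39 and 64. Variants of window 4 to 7 had a median ratio of 0.682, near the lowest of the table, against 8.45 in window 7 to 10. The part of a floor in this difference between windows was not tested. Within window 7 to 10, C7G had a median effect of -1.003 in the 4 backgrounds that kept both positions 8 and 9. It was -1.80 in the 12 with only position 8 changed, -2.30 in the 12 with only position 9 changed, and -2.27 in the 36 with both changed. For C7T the same medians were -1.19, -1.59, -1.85 and -2.07. C7A went from -0.27 to -0.70 with position 8 changed and -0.81 with both changed, but was -0.25 with only position 9 changed. By these medians a change at position 7 was costlier once position 8 or 9 had also been changed, with the exception of C7A beside a changed position 9.

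At the other shared positions the medians of both windows lay closer than those of C7G and C7T. Those of C4A were -1.62 in window 1 to 4 and -1.74 in window 4 to 7, those of C4G -1.47 and -1.87, those of C4T -1.47 and -1.74, those of T13G 0.33 and 0.31 in windows 10 to 13 and 13 to 16, and those of T13C 0.26 and 0.24. At position 10 they were 0.33 and 0.50 for A10C and 0.13 and 0.42 for A10G in windows 7 to 10 and 10 to 13. Those of A10T changed sign, from -0.12 to 0.10. By these medians the lowest change at position 4 was C4G in window 4 to 7 but C4A in window 1 to 4.

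Double variants often departed from the sum of their single variants in the consensus windows. The departure is the log ratio of the double variant plus that of the reference, less those of both single variants. Of 270 double variants, 21.5% lay below their sum and 10% above it by more than 2 counting SE. By window, 18, 24 and 16 of 54 lay below in the first 3 windows and 0 and 0 in the last 2, while 7, 7, 2, 2 and 9 lay above. The double variants with the largest departure below and above in the first 3 windows show the pairs involved:
C4T with C7G, below: gacTacGcaagatgaa
C7G with A9C, below: gaccacGcCagatgaa
A2C with C3G, below: gCGcacccaagatgaa
A5T with C6G, above: gaccTGccaagatgaa
G1C with A2G, above: CGccacccaagatgaa
C8G with A9G, above: gaccaccGGagatgaa

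C7G with A9C had 993 bound and 390 unbound reads and lay at -2.64 from the reference, against -1.25 for the sum of its single variants, a departure of -1.39 ± 0.18. C4T with C7G (467 and 409 reads) lay at -3.44 against -2.15, a departure of -1.29 ± 0.13. A2C with C3G (1343 and 428 reads) departed by -1.01 ± 0.18. In each of these the pair bound less than its single changes add up to. In the other direction, A5T with C6G (1739 and 188 reads) lay at -1.35 against -2.48, a departure of 1.12 ± 0.18. G1C with A2G departed by 0.62 ± 0.23 and C8G with A9G (2982 and 113 reads) by 0.55 ± 0.20.

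Pairs of positions had their own pattern. Positions 4 and 6 had 8 of 9 double variants below their sum, positions 7 and 8 had 7, and both 4 with 7 and 7 with 9 had 6. Positions 5 and 6 had 5 of 9 above and 1 below, and positions 15 and 16 had 6 of 9 above, with A15G and A16G together (7506 and 125 reads) departing by 0.84 ± 0.17. The reference line and the single variants enter many of these values at once, so the departures of a pair are not independent.

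The same departures were computed in the 15 backgrounds of each pair that are not the reference, an alternative chosen after the data were seen. For positions 7 and 8 the median went from -0.67 to -0.31, and for 7 and 9 from -0.67 to -0.36, with 74.8% and 79.3% of 135 values below 0. For positions 8 and 9 it stayed above 0, at 0.26 and 0.36. Positions 5 and 6 went from 0.70 to 0.19, and 15 and 16 from 0.52 to 0.16. In windows 1 to 4 and 4 to 7, the pairs with a median below 0 next to the reference moved above 0, with the exception of positions 5 and 7 (-0.29 and -0.0089). For positions 4 and 6 the median went from -0.84 to 0.028, with 48.9% of 135 values still below 0, and for 4 and 7 from -0.97 to 0.43, with 18.5% below 0. Positions 3 and 4 went from -0.19 to 0.74 and positions 6 and 7 from -0.25 to 0.70. The pairs 1 with 3, 1 with 4 and 2 with 4 went from -0.27, -0.38 and -0.23 to 0.22, 0.26 and 0.16. Sequences with 4 changes in these windows lay near the lowest ratios of the table, and the part of a floor in these medians was not tested.

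Additive base effects held 84.8%, 86.1% and 89.2% of the variance of the log ratio in the consensus windows. Terms for adjacent base pairs brought these to 94.2%, 93.7% and 95.2%. The additive fit put the reference below its measured log ratio, by -0.63 in window 1 to 4 and -0.51 in window 4 to 7, and above it by 0.40 in window 7 to 10. In the outer windows the fitted reference lay at -0.10 and -0.24 from the measured value.

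The 21 variants called higher than the reference nearly all lay in window 10 to 13, which held 20. Their bases were mostly C at position 10 (14 of 20) or G there (5), G at position 11 (12), G at position 12 (11) and G (11) or C (7) at position 13. Each base stands at each of these positions in 64 of the window's 256 sequences. None of the 20 kept A at position 10. The highest 4 of that window, printed to show what they share, all held C or G at position 10, and the first 3 kept G at position 11:
highest: gaccacccaCgaGgaa
second: gaccacccaGgGCgaa
next: gaccacccaCgGGgaa
then: gaccacccaCCGCgaa

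The first of these had 4175 bound and 36 unbound reads, a ratio of 114 and a difference of 1.16 ± 0.18. The second had 9723 and 86 reads (1.15 ± 0.13), the next 9389 and 84 (1.13 ± 0.13), and the last 2564 and 25 (1.03 ± 0.21). These 4 did not differ beyond 2 counting SE. In window 13 to 16 the variant called higher was gaccacccaagaCgCC, with 1861 and 21 reads and a difference of 0.89 ± 0.23.

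Sequences with a CpG were set against the additive fit. Each CpG place inside a window has 16 sequences and was ranked among the 16 dinucleotides there. CpG lay lowest of the 16 with its C at position 4 (median residual -0.29) and at position 6 (-0.44), and second lowest at position 3 (-0.40) and position 9 (-0.15), the last of which became -0.016 when the fit was weighted by counting error. At positions 8 and 2 it was the third lowest, at -0.18 and -0.12, while at positions 1, 5 and 7 the medians were -0.05, -0.02 and 0.10. At positions 10 to 12 the medians ran from -0.03 to 0.02. With C at position 13 it was the highest of the 16, at 0.07. The median counting SE of a sequence's difference from the reference there was 0.15, which is not the error of a median over 16 sequences. CpG places with C at 3, 4, 6, 7 or 8 keep a reference cytosine beside a changed neighbour, and their medians had both signs. Methylation and sequence cannot be told apart at any of these places, because the table gives no methylation state.

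The outer positions gave different values in the R4-R6 reaction, another table, which lists 7-base sequences. The characteristics of its samples describe a CTCF library, in conflict with their titles, which were followed. The sequences of that reaction list only the last 7 bases, and the first 9 were taken to be those of the reference. The reference then had a ratio of 3.66, against 35.7 in the 16-base table. Neither ratio is scaled for depth, and the depth of the fractions differed. The 7-base sequences summed to 341388 reads in the bound fraction and 523242 in the unbound, against 2101487 and 291873 for the 16-base sequences. These ratios therefore do not show whether the reference bound more weakly in the R4-R6 reaction. In the R4-R6 reaction 435 of 507 variants (85.8%) were called lower than the sequence with the reference's last 7 bases. They included 13 of the 21 single-base variants, for which the 16-base table had 0. G11A lay at -3.31 ± 0.13 and G14A at -2.77 ± 0.10 there, against -0.67 ± 0.15 and -0.58 ± 0.17. The ratios of window 10 to 13 spanned 108-fold there against 6.26-fold here, and those of window 13 to 16 44.8-fold against 4.91-fold. Each reaction was run once, so these differences were not tested beyond counting error.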

How the data were processed

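Gel pieces with bound and with free DNA were cut out after electrophoresis, and the extracted DNA was amplified by PCR, per the labels' protocols. The authors deposited whole-number read counts per sequence in each fraction, per the file headers, and the ratio of the bound to the unbound count. A further deposited column, unnamed, is the natural log of the ratio with its sign changed, to within 0.0005. How reads were counted and filtered is not stated in these sources. Counts were not scaled for depth.

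Log ratios are natural logs of bound over unbound counts after 0.5 was added to each, and the counting SE is the root of the summed reciprocals of both counts. Sequences needed 10 reads in both fractions. A substitution gives the reference base, the position from 1 at the first listed base, and the variant's base. Additive effects were fitted by ordinary least squares on the bases of each window. A call needed a 2-fold difference and more than 2 counting SE. Named sequences are the reference, its single-base variants, the extremes of each window and the double variants that departed most from additivity among those with 30 reads in both fractions. Members, lists and rules were chosen with earlier results of these data known. The arithmetic was tested on simulated data. Alternatives covered the pseudocount, the read minimum, the call rule, the deposited ratio, the reference and the fit. The R6 reaction was not used here. Scripts ran under Python 3.11.15 with numpy 2.4.6 and pandas 2.3.3.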

Additional observations from a re-analysis of the deposited data

Results flagged for a closer look

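A10G and T13G lay beyond 2 counting SE of the reference with opposite signs in this table and in the R4-R6 reaction. A10G lay at 0.23 ± 0.11 (counting SE) from the reference in the 16-base table and at -1.10 ± 0.05 in the R4-R6 reaction, and T13G at 0.22 ± 0.10 and -1.18 ± 0.05. Each reaction was run once, so the difference was not tested.

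The 2 lines of the table that were left out fit none of the 5 windows and had 1 unbound read each. They had 44 bound reads (gaccacccaagGGgaT, with changes from position 12 to 16) and 53 bound reads (gaccacccaGgCGgaT, from position 10 to 16), above the 3 counts that a count of 0 allows.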

How the results depend on the processing

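Depth limited the outer windows most, and a minimum of 100 reads left 32 and 43 of 256 sequences there. With a pseudocount of 0 or 1, each of the 48 single-base variants moved by less than its 95% counting interval; the deposited ratio equals a pseudocount of 0, and a read minimum cannot change the value of a variant that it keeps. No paired analysis was possible because each reaction has 1 library per fraction, and for the same reason no replicate could be left out. A read minimum of 1 adds only the 2 lines that lie in no window, so it could move no value of the comparisons. Values from the deposited ratio repeat those with a pseudocount of 0. With these included, of 400 values of the comparisons under the alternatives, 359 stayed within their error or within 1.5 times and 41 moved, as follows.

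With no fold limit, 21 single-base variants at positions 1 to 9 and 5 at positions 10 to 16 were lower and 3 were higher. Window 7 to 10 then had 4 higher, window 10 to 13 had 28 lower and 82 higher, and window 13 to 16 had 47 lower and 36 higher. With a 4-fold limit, 4 single-base variants at positions 1 to 9 were called lower, and windows 10 to 13 and 13 to 16 had 0 calls. Against each window's own strongest sequence, 203 and 200 variants of windows 10 to 13 and 13 to 16 were called lower; that sequence was the highest by choice.

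A minimum of 30 reads left 0 higher calls in window 13 to 16. A minimum of 100 reads, which keeps sequences with many unbound reads, gave medians of -1.29 and -1.43 for 1 changed base in windows 1 to 4 and 4 to 7, and -1.78 and -1.76 for 2 and 3 changed bases in window 7 to 10. It left 2 higher calls in window 10 to 13, 0 calls in window 13 to 16 and an additive share of 82.2% there. Departing double variants then numbered 6 below and 4 above in window 1 to 4, 1 above in window 4 to 7, 1 below and 0 above in window 7 to 10, 0 above in window 10 to 13 and 1 above in window 13 to 16; fewer double variants were tested. At 3 counting SE, 10 lay below and 1 above in window 1 to 4, and 4, 0, 0 and 1 above in the later windows.

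Weighting by counting error gave an additive share of 79.7% in window 1 to 4. Adjacent base pairs brought the shares to 94.2%, 93.7% and 95.2% in the first 3 windows and 78.9% in window 13 to 16, with more terms fitted. Without the reference line, the median departures of 30 pairs of positions stayed within their SD for 19 and moved further for 11. Of these, positions 4 and 6 (0.028), 4 and 7 (0.43), 1 and 3 (0.22), 1 and 4 (0.26), 2 and 4 (0.16), 3 and 4 (0.74) and 6 and 7 (0.70) turned above 0, and 14 and 16 (-0.026) below 0; the cause was not tested.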
